A study of Mus musculus with 10 samples.

Results

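The genes described are the exocytosis machinery of insulin granules, a list of 42 SNARE, synaptotagmin, Rab, complexin, docking and priming genes chosen by name among 56748 gene identifiers. Earlier results of these data were known when the list was chosen. All 42 matched 1 identifier each, and 40 had enough reads to be tested. RNA-seq was done on FACS-purified beta cells whose islets came from NOD males, 6 to 8 weeks old. Mice of this strain are prone to autoimmune diabetes, which not every animal develops, and the labels name no transgene or deletion. The LPS group (n = 5 libraries, numbered 6 to 10) came from islets cultured for 48 hours with lipopolysaccharide, a bacterial cell wall component, at 50 ng/ml. The untreated group (n = 5, numbered 1 to 5) came from islets without it. LPS was added to whole islets before dispersal and sorting, so other islet cells were present during the exposure. The series describes the 5 samples of a group as independent but names no animals, so p-values measure the spread between these libraries, which may be technical.

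Insulin is stored in dense-core granules and leaves the cell when a granule fuses with the plasma membrane. Rab GTPases and their effectors bring granules to the membrane, priming factors make them ready for release, and calcium entry triggers fusion through synaptotagmins. Fusion itself is driven by SNARE proteins, with VAMP on the granule and syntaxin and SNAP-25 on the target membrane. Sec1/Munc18 proteins and complexins assist the SNAREs, tomosyns hold them back, and NSF with the SNAP adaptors takes the spent complexes apart.

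Of the 40 genes tested, 4 fell in the LPS libraries and none rose. They were Cplx2, the complexin gene of beta cells, Cadps, which encodes the priming factor CAPS1, Sytl4, which encodes the docking factor granuphilin, and Rab3b, which encodes a granule-associated GTPase. The decreases were modest, between 18.8% for Sytl4 and 27.2% for Cplx2. They lay in 4 different roles, and the genes of the core fusion SNAREs were not among them. Calls rest on edgeR's quasi-likelihood test with Benjamini-Hochberg adjustment over all 15942 genes tested and a threshold of 0.05. The 4 lower genes are 10% of the 40, and over all genes tested 0.928% were called lower. These shares are not of like genes. The median biological coefficient of variation, edgeR's measure of spread between libraries, was 0.097 for the 40 and 0.133 for all genes tested. Modest changes are therefore easier to call in the list, and enrichment of the list was not tested. Genes called higher made up 2.84% of all genes tested.

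RefSeq promoter sequences were found for 31 of the 42 genes, and those of the 4 lower genes are shown because these genes moved in the same direction. Each covers 250 bases before and 50 bases after an annotated transcript start (assembly GRCm38.p6), written 5′ to 3′ on the strand of the gene. Capitals mark matches, on either strand, to 7 short motifs. The motifs were the GC box (GGGCGG), the half-site of the cyclic AMP response element (TGACG), the TATA box (TATAAA), the CCAAT box (CCAAT), the AP-1 site (TGANTCA), a stretch of the REST site (CAGCACC) and the core of the interferon-stimulated response element (TTTC, any 2 bases, then TTTC). Cplx2 lies at chr13:54302306-54302605 (plus strand), Cadps at chr14:12823030-12823329 (minus), Sytl4 at chrX:133981763-133982062 (minus) and Rab3b at chr4:108878820-108879119 (plus).
Cplx2: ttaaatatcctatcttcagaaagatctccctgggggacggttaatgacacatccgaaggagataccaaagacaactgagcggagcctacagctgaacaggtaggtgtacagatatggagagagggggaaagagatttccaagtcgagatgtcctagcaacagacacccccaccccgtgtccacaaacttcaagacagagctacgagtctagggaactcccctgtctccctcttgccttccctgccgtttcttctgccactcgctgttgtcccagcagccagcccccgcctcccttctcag
Cadps: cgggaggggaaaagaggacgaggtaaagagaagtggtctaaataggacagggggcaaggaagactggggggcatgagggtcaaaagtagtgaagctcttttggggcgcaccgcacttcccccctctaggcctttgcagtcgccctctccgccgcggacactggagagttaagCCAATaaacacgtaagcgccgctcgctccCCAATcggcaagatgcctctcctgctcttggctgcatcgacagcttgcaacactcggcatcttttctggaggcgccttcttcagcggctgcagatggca
Sytl4: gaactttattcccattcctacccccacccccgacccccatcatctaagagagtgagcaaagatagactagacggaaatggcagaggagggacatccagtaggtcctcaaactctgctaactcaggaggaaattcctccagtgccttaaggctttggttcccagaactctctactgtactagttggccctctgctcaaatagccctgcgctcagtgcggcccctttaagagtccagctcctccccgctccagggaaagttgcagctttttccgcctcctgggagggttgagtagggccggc
Rab3b: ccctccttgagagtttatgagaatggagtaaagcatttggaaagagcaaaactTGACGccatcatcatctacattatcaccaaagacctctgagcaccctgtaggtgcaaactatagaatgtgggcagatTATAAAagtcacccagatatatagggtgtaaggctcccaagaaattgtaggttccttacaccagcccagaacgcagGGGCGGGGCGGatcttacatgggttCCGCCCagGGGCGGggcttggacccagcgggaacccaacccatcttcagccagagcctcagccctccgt
The window of Rab3b held 4 GC boxes, counting overlapping ones, beside 1 TATA box and 1 half-site of the cyclic AMP response element. That of Cadps held 2 CCAAT boxes. None of the 7 motifs was found in the windows of Cplx2 and Sytl4. For comparison, a GC box stood in 35.7% of all 32851 windows in the table, a TATA box in 13.6%, a half-site of the cyclic AMP response element in 20.8% and a CCAAT box in 37.4%. The remaining shares were 7.81% for the AP-1 site, 7.14% for the REST stretch and 3.44% for the interferon-stimulated core. At least 1 GC box was present for 1 of the 4 lower genes and for 19 of the 27 other listed genes with a window. These counts were 1 and 10 for the cyclic AMP half-site, 1 and 10 for the CCAAT box and 1 and 1 for the TATA box. They were 0 and 3 for the REST stretch, 0 and 1 for the interferon-stimulated core and 0 and 0 for the AP-1 site. CpG dinucleotides numbered 9 for Cplx2, 17 for Cadps, 7 for Sytl4 and 8 for Rab3b, beside a median of 19 in the 29 windows of those other genes and of 7 in all windows. These matches are descriptions of the letters and were not tested.

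Library depth was 18465188 to 27379892 reads assigned to genes in LPS and 23269906 to 26137820 in untreated libraries (two-sided exact permutation test of the means, p = 0.246). The groups separated as labelled for genes known to respond to LPS: Irf7 had 51.2 to 72.4 normalised CPM (reads scaled to a common library size) in LPS and 14.5 to 17.6 CPM in untreated libraries. Beta cell markers were abundant, with Ins2 at 53867 to 75172 CPM in LPS and 64591 to 80001 CPM in untreated libraries. Transcripts of other islet cells were present as well, and such cells secrete their hormones with much of the same machinery. The alpha cell hormone gene Gcg had 4022 to 8759 CPM in LPS and 4845 to 14063 CPM in untreated libraries. Over 11 marker lists the summed level was compared by exact permutation tests, and the adjusted p over the lists was at least 0.175. With 5 against 5 libraries the smallest exact p is 0.00794, and a single list that separated the groups completely would reach an adjusted p of 0.0873, so these adjusted values could not pass for 1 list alone. Over all genes tested the first principal component of log2(CPM + 1) separated the groups (29.3% of the variance), with scores of -25.3 to -3.21 in LPS and 2.69 to 19.3 in untreated libraries. The second held 24.7% and rose with library number within both groups. Its scores were -20.7, -5.88, -0.816, 9.38 and 26.5 in LPS 6 to 10. In untreated 1 to 5 they were -17.7, -8.285, -4.235, 1.91 and 19.8. The labels give no batch for this component and no fit took it into account, so the spread behind each p-value includes it.

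**Figure D1:**
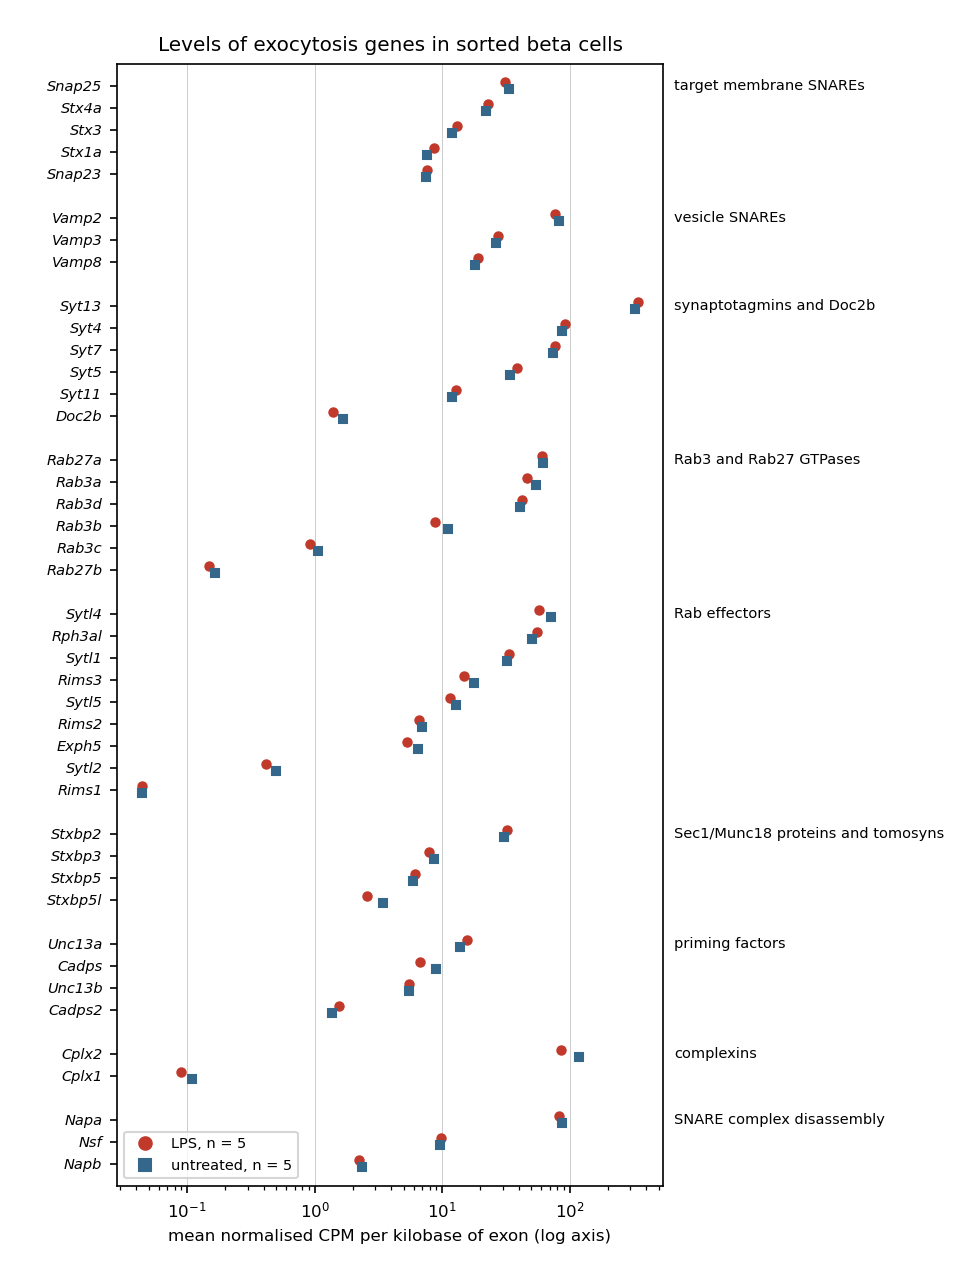
Mean normalised CPM per kilobase of exon (log axis) of the 42 exocytosis genes, grouped by role, with LPS as circles above untreated as squares (n = 5 libraries each). Syt13 is the highest of the genes shown and Rims1 and Cplx1 are the lowest.

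The machinery was well represented in these cells. Averages were above 10 CPM in both groups for 37 of the 42 genes and above 100 CPM for 17. Levels of different genes are compared per kilobase of merged exon length, which understates genes with long or many alternative exons. On that scale the highest was Syt13, which encodes an atypical synaptotagmin, with 345 CPM per kilobase in LPS and 324 in untreated libraries. Next came Syt4 in LPS and Cplx2 in untreated libraries. Syt4 had 91.6 CPM per kilobase in LPS and 87.5 in untreated libraries, and Cplx2 had 86.1 in LPS and 118 in untreated libraries. Rab27a gave 99.8 ± 0.070% in LPS and 99.7 ± 0.063% in untreated libraries of the summed per-length level of both Rab27 genes (SD, n = 5). Rims1, the gene of a large active-zone scaffold, and Cplx1, the complexin gene typical of neurons, were barely detected and were not tested. Rims1 had 36 reads over the LPS and 40 over the untreated libraries. Cplx1 had 21 reads over the LPS and 29 over the untreated libraries.

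**Figure D2:**
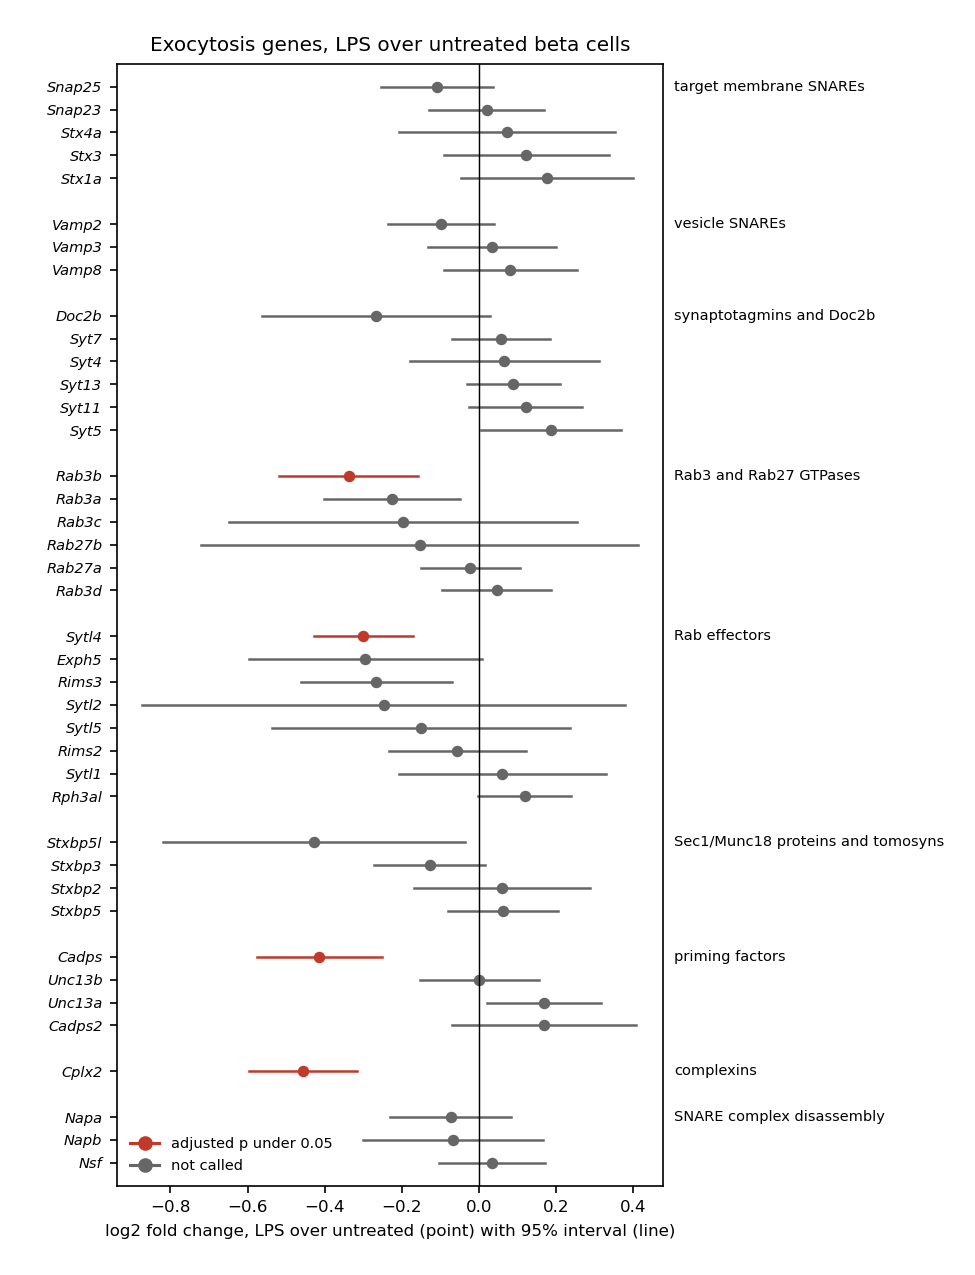
Log2 fold change of LPS over untreated for the 40 exocytosis genes tested (point) with its 95% interval (line), grouped by role. The 4 genes called lower, Rab3b, Sytl4, Cadps and Cplx2, are in red and the 36 genes not called are in grey, of which 20 lie above 0.

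Complexins bind the assembled SNARE complex and hold it ready for the calcium signal. Cplx2 (ENSMUSG00000025867) had 377, 431, 435, 433 and 445 CPM in LPS 6 to 10, against 546, 611, 578, 618 and 559 CPM in untreated 1 to 5. Every LPS library lay below every untreated library, and LPS 6 was the lowest of all. The means were 424 ± 26.9 CPM in LPS and 582 ± 31.4 CPM in untreated libraries (SD, n = 5 each), and the log2 fold change was -0.46 ± 0.065 (SE; edgeR adjusted p = 0.00101). Among the 40 genes it had the smallest adjusted p and the most negative log2 fold change, and it kept its call with any single library left out.

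Priming factors act after docking. Cadps (ENSMUSG00000054423) encodes CAPS1, which readies dense-core vesicles for release, and had 107, 108, 108, 96.7 and 84.7 CPM in LPS 6 to 10, against 134, 143, 139, 129 and 127 CPM in untreated 1 to 5. The groups did not overlap, and LPS 10 was the lowest library. The fitted difference was -0.41 ± 0.075 on the log2 scale (SE; edgeR adjusted p = 0.00603). Its relative Cadps2, which encodes CAPS2, averaged 14.8 ± 2.40 CPM in LPS and 13.2 ± 0.83 CPM in untreated libraries (SD, n = 5 each) and was not called (log2 fold change 0.17, 95% interval -0.07 to 0.41). Per length, Cadps made up 79.2 to 83.5% of both genes together in LPS and 86.3 to 87.1% in untreated libraries, so that these shares did not overlap either, although their difference was not tested.

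The other priming genes code for Munc13 proteins, which open syntaxin for SNARE assembly. Unc13a (ENSMUSG00000034799), of Munc13-1, had 189.6, 196, 218, 212 and 172 CPM in LPS 6 to 10, against 182, 174, 176, 168 and 180.1 CPM in untreated 1 to 5. Values were above the untreated range in 4 LPS libraries and within it in LPS 10, and Unc13a was not called in edgeR (log2 fold change 0.17, unadjusted p = 0.0288, adjusted p = 0.251). With sample quality weights in limma-voom it was called higher (adjusted p = 0.0351; 0.237 to 0.423 over the other 7 settings and 0.0849 to 0.463 with 1 library left out). Exons of Unc13a overlap those of Colgalt1 on the opposite strand by up to 495 bases. The use of strand in counting is not given in the sources used here, so reads there may be left uncounted as ambiguous or be mixed. Unc13b averaged 126 ± 9.79 CPM in LPS and 126 ± 9.20 CPM in untreated libraries (SD, n = 5 each; log2 fold change 95% interval -0.15 to 0.15).

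**Figure D3:**
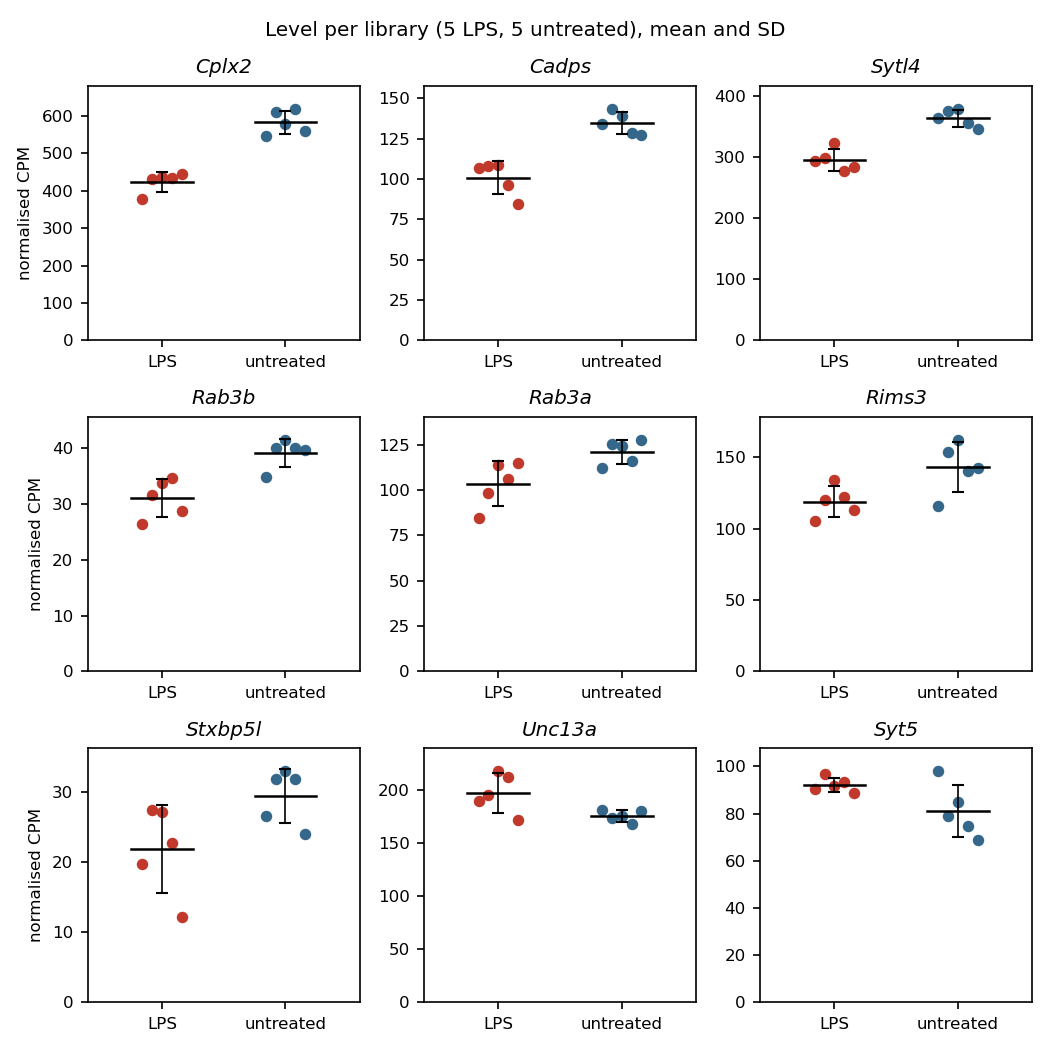
Normalised CPM in each library (points), with the mean (horizontal line) and SD (error bar), for 5 LPS and 5 untreated libraries. Cplx2, Cadps, Sytl4 and Rab3b show no overlap between groups, while Rab3a, Rims3, Stxbp5l, Unc13a and Syt5 do.

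Rab effectors link granules to the membrane and to the release site. Sytl4 (ENSMUSG00000031255) encodes granuphilin, which binds Rab27a and syntaxin and docks insulin granules, and was the highest of the 9 effector genes per length. It had 293, 298, 323, 277 and 284 CPM in LPS 6 to 10, against 363, 375, 378, 356 and 345 CPM in untreated 1 to 5. All LPS libraries lay below the untreated range, and the fitted difference was -0.30 ± 0.06 on the log2 scale (SE; edgeR adjusted p = 0.0114). Of the 7 other effector genes tested none was called, 2 had positive and 5 negative log2 fold changes. Rims3, which encodes a short RIM protein, had 105, 120.0, 134, 122 and 113 CPM in LPS 6 to 10, against 116, 154, 162, 141 and 142 CPM in untreated 1 to 5. Untreated 1 lay within the LPS range and the other 4 untreated libraries above it, so the groups overlapped through that library. Rims3 was not called (log2 fold change -0.27, unadjusted p = 0.0116, edgeR adjusted p = 0.154), but it was without untreated 1 (adjusted p = 0.0348). Exph5, which encodes the Rab27 effector Slac2-b, averaged 55.4 ± 12.8 CPM in LPS and 68.0 ± 7.15 CPM in untreated libraries (SD, n = 5 each), with an adjusted p of 0.341 in edgeR. Rph3al, which encodes the Rab effector Noc2, was above the untreated mean in 5 of 5 LPS libraries and was not called either (log2 fold change 0.12, 95% interval -0.0022 to 0.24). Sytl1, Sytl2, Sytl5 and Rims2 had log2 fold changes between -0.25 and 0.06.

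Rab3 and Rab27 GTPases sit on the granule surface and recruit these effectors. Rab3b (ENSMUSG00000003411) had 26.4, 31.5, 33.7, 34.5 and 28.7 CPM in LPS 6 to 10, against 34.8, 40.0, 41.4, 40.0 and 39.6 CPM in untreated 1 to 5. The groups were separate only narrowly, since LPS 9 and untreated 1 differed by less than 1 CPM. The log2 fold change was -0.34 ± 0.083 (SE; edgeR adjusted p = 0.0398). This call was lost in 7 of 10 fits with 1 library left out, namely without LPS 6, LPS 7, LPS 10, untreated 2, untreated 3, untreated 4 or untreated 5 (adjusted p of 0.0605 to 0.106), and with scaling by library totals alone (0.0626). Rab3a, the member best known from neurons, had 84.8, 98.5, 114, 106 and 115 CPM in LPS 6 to 10, against 112, 125, 124, 116 and 128 CPM in untreated 1 to 5. It was below the untreated mean in 5 of 5 LPS libraries, with overlap, and was not called (log2 fold change -0.23, unadjusted p = 0.0162, edgeR adjusted p = 0.186). Exons of Rab3a overlap those of Mpv17l2 on the opposite strand by 29 bases, and Rab3b overlaps an antisense gene that had 8 reads over all libraries. Rab27a, the most abundant GTPase gene of the list per length, averaged 237 ± 11.1 CPM in LPS and 241 ± 13.4 CPM in untreated libraries (SD, n = 5 each), with a 95% interval of -0.15 to 0.11 for its log2 fold change. Rab3d averaged 176 ± 9.57 CPM in LPS and 171 ± 12.6 CPM in untreated libraries, with an interval of -0.10 to 0.19. Rab3c and Rab27b were low, at 11.1 and 1.58 CPM in LPS and 12.8 and 1.76 CPM in untreated libraries, and their intervals were wide.

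**Figure D4:**
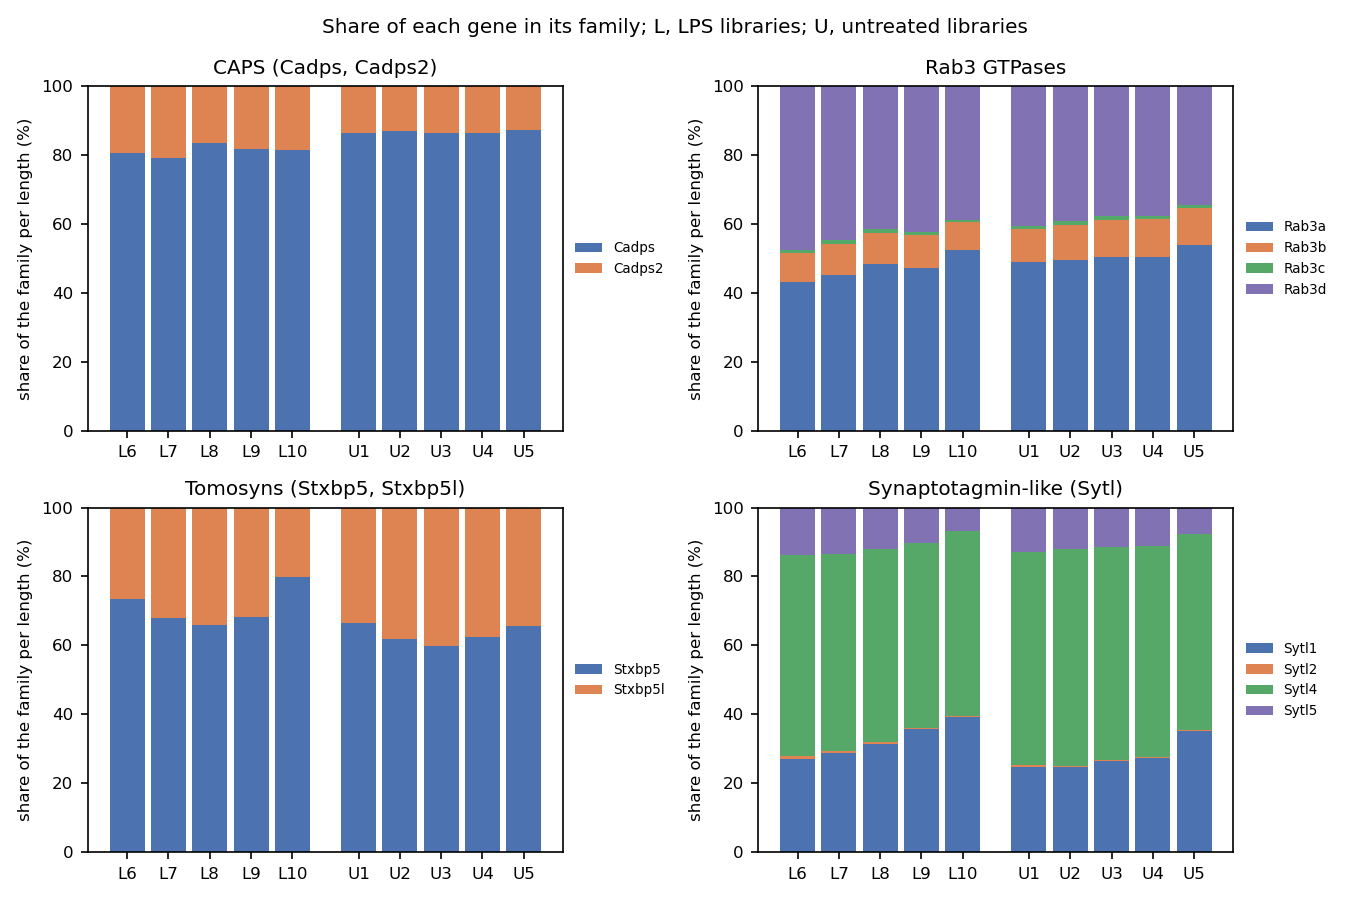
Share of each gene in the summed per-length level of its family (%), in each of the 5 LPS (L) and 5 untreated (U) libraries, for 4 families. The Cadps share is 79.2 to 83.5% in LPS and 86.3 to 87.1% in untreated libraries.

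Within the Rab3 family the shares of the summed per-length level were close for Rab3a and Rab3d. Rab3a made up 47.2 ± 3.54% in LPS and 50.7 ± 1.97% in untreated libraries, and Rab3d 42.9 ± 3.36% in LPS and 38.0 ± 2.25% in untreated libraries (SD, n = 5). Rab3b made up 8.27 to 9.72% in LPS and 9.60 to 11.0% in untreated libraries, ranges that overlap. Among the synaptotagmin-like genes Sytl4 held 55.8 ± 2.08% in LPS and 60.8 ± 2.17% in untreated libraries. These shares describe the mixture of transcripts and were not tested.

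Core SNARE genes did not pass the test, in either direction. Snap25, the target membrane SNARE gene highest per length, had 189.7, 212, 207, 215 and 224 CPM in LPS 6 to 10, against 199.9, 233, 236, 239 and 222 CPM in untreated 1 to 5, and the groups overlapped (log2 fold change 95% interval -0.25 to 0.04; edgeR adjusted p = 0.498). Vamp2, the granule SNARE gene, had 269, 288, 301, 288 and 319 CPM in LPS 6 to 10, against 287, 309.9, 327, 315 and 329.8 CPM in untreated 1 to 5 (interval -0.24 to 0.04; adjusted p = 0.527). Both were below the untreated mean in most LPS libraries, 5 of 5 for Snap25 and 4 of 5 for Vamp2. Stx1a, the syntaxin gene of regulated release, averaged 23.1 ± 3.23 CPM in LPS and 20.4 ± 1.82 CPM in untreated libraries (SD, n = 5 each). Per length it was lower than Stx4a, the syntaxin gene also known from constitutive traffic, at 8.65 against 23.1 CPM per kilobase within LPS and 7.65 against 21.9 within untreated libraries. Snap23, Stx3, Stx4a, Vamp3 and Vamp8 had log2 fold changes between 0.02 and 0.12, all of which missed the threshold.

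The synaptotagmin genes and Doc2b did not pass either. Syt13, the atypical member, had 1323, 1346, 1271, 1272 and 1269 CPM in LPS 6 to 10, against 1252, 1271, 1190.2, 1176 and 1208 CPM in untreated 1 to 5. Its log2 fold change of 0.09 had a 95% interval of -0.03 to 0.21. Syt7, which encodes a high-affinity calcium sensor of insulin release, averaged 573 ± 33.2 CPM in LPS and 550.4 ± 15.6 CPM in untreated libraries (SD, n = 5 each; interval -0.07 to 0.18). Syt5, whose product is a calcium-binding synaptotagmin, had 90.5, 96.6, 91.8, 93.6 and 88.6 CPM in LPS 6 to 10, against 98.0, 79.1, 85.0, 74.5 and 68.8 CPM in untreated 1 to 5. The LPS libraries were tightly grouped above the untreated mean, but untreated 1 was above all of them, and Syt5 was not called (unadjusted p = 0.046, edgeR adjusted p = 0.314). Syt4 and Syt11, relatives that do not respond to calcium like the classical sensors, had log2 fold changes of 0.07 and 0.12. Doc2b, which encodes a soluble calcium sensor, was low at 6.07 ± 1.09 CPM in LPS and 7.28 ± 0.69 CPM in untreated libraries (adjusted p = 0.389).

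Genes that guard or dismantle the SNARE complex kept overlapping groups. Stxbp2, of Munc18-2, had 111, 117, 136, 143 and 159 CPM in LPS 6 to 10, against 113, 119, 128, 125 and 154 CPM in untreated 1 to 5, with LPS 10 and untreated 5 the highest of their groups (log2 fold change 95% interval -0.17 to 0.29). Stxbp3, of Munc18c, was below the untreated mean in 5 of 5 LPS libraries (log2 fold change -0.13, edgeR adjusted p = 0.394). Stxbp5l, which encodes the inhibitory protein tomosyn-2, had 19.7, 27.4, 27.1, 22.7 and 12.1 CPM in LPS 6 to 10, against 26.5, 31.7, 32.9, 31.8 and 24.0 CPM in untreated 1 to 5. Its log2 fold change of -0.43 was as large as that of Cadps, but the LPS libraries spread more widely, from LPS 10 to LPS 7, and it was not called (unadjusted p = 0.0343, edgeR adjusted p = 0.276). Stxbp5, of the first tomosyn, averaged 102 ± 7.76 CPM in LPS and 97.7 ± 5.27 CPM in untreated libraries (SD, n = 5 each). Of the disassembly genes, Napa, of alpha-SNAP, had 319.9, 273, 305, 312 and 352 CPM in LPS 6 to 10, against 327, 321, 309, 325 and 361 CPM in untreated 1 to 5. Napb and the ATPase gene Nsf had log2 fold changes of -0.07 and 0.03, and none of the 3 was called (edgeR adjusted p of at least 0.71).

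As a list the 40 tested genes were centred like the rest of the transcriptome. Their median log2 fold change was -0.011, that of all genes tested was -0.0091, and 20 of the 40 values lay on each side of 0. Without LPS 6 the median of the members was -0.057. Groups did not overlap for 4 members, the same genes that were called, all lower in LPS, where 1.87% of all genes tested had every LPS library below every untreated one and 3.84% the reverse. At an unadjusted p under 0.05, 7 of 40 were lower and 2 higher, beside 6.98% and 8.32% of all genes tested. DESeq2 and limma-voom each called the same 4 genes lower and none higher, against 1.48% and 0.866% lower and 3.34% and 2.77% higher over all genes in those tools. Limma-voom with sample quality weights called the same 4 lower and Unc13a higher, beside 1.89% lower and 4.35% higher overall. With DESeq2 size factors in edgeR the 4 were called lower and none higher (0.916% and 2.75% of all genes), as they were with the 20 most abundant genes left out of the scaling (0.947% and 2.8%). Without a filter on low counts the same held (0.503% and 1.5%), and with a filter at 1 CPM in 5 libraries (1.24% and 3.08%). Scaling by library totals alone called 3 lower and none higher (0.828% and 3.07%). For 29 of the 36 genes not called, the 95% interval lay within 0.5 of 0 on the log2 scale, so that larger changes of those genes fell outside the intervals.

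**Figure D5:**
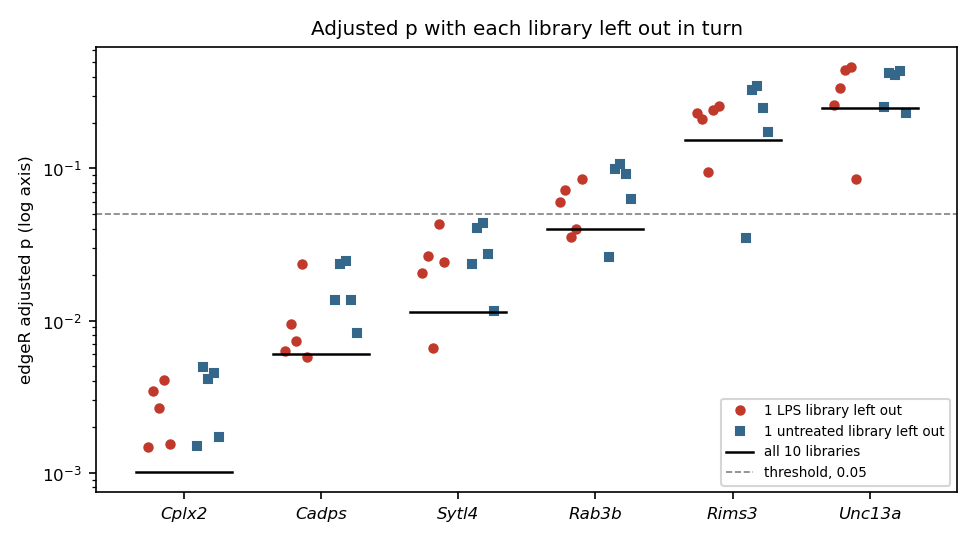
Adjusted p of edgeR (log axis) with each LPS or untreated library left out in turn (points) and with all 10 libraries (black line); the dashed line is the threshold of 0.05. Cplx2, Cadps and Sytl4 stay under the line in all 10 fits, Rab3b in 3, Rims3 in 1 and Unc13a in none.

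Other genes of the pathway were counted from 3 lists that were not picked for how they moved, although some results of these data were known. Among 49 tested genes of other fusion, docking and priming factors, Baiap3 fell and none rose (edgeR; 1 higher and 10 lower at an unadjusted p under 0.05). Beside all 3 lists, edgeR called 0.928% of all genes tested lower and 2.84% higher. At an unadjusted p under 0.05 the shares over all genes tested were 6.98% lower and 8.32% higher. Baiap3 encodes a Munc13 relative and had 229, 284, 355, 317 and 295 CPM in LPS 6 to 10, against 342, 416, 416, 386 and 513 CPM in untreated 1 to 5. The groups overlapped through LPS 8 and untreated 1, and the log2 fold change was -0.49 (adjusted p = 0.0401). Its call was kept only without LPS 8 or untreated 1 and was lost in the other 8 fits with 1 library left out (adjusted p up to 0.0919). In DESeq2 Rab37 was called lower too, and with quality weights Pclo lower and Sv2b higher. None of 11 tested exocyst and Ral genes was called in edgeR, DESeq2 or limma-voom, while 2 were higher and none lower at an unadjusted p under 0.05 and Rala was called higher with quality weights.

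SNARE and Sec1/Munc18 genes listed for the endoplasmic reticulum, Golgi and endosomes mostly serve traffic inside the cell. Of the 28 tested, 2 rose and none fell (edgeR), beside 2.84% and 0.928% of all genes tested. At an unadjusted p under 0.05, 2 were higher and none lower, beside 8.32% and 6.98% of all genes tested. Stx18, an endoplasmic reticulum syntaxin gene, had 37.7, 42.7, 39.8, 40.7 and 40.3 CPM in LPS 6 to 10, against 32.5, 33.4, 35.4, 36.0 and 31.0 CPM in untreated 1 to 5. The groups did not overlap (log2 fold change 0.26, edgeR adjusted p = 0.0418). Stx11, a syntaxin gene known from granule release in cytotoxic lymphocytes, had 9.81, 2.64, 1.71, 2.47 and 1.49 CPM in LPS 6 to 10, against 1.32, 0.405, 0.380, 0.344 and 0.575 CPM in untreated 1 to 5 (log2 fold change 2.55, adjusted p = 0.0219). LPS 6 stood far above the others for Stx11, and every LPS library was above every untreated one. Without LPS 6 the log2 fold change was 1.75 (adjusted p = 0.026). Of 7 lymphocyte markers, Cd3e, Cd3d and Ms4a1 had no reads in any library, and their sum was 1.14 to 2.78 CPM in LPS and 2.18 to 3.61 CPM in untreated libraries. Cd79a made up nearly all of it, at a mean of 1.93 CPM in LPS and 2.67 CPM in untreated libraries, and the part of such cells in the level of Stx11 was not tested. Stx18 kept its call in 2 of 10 fits with 1 library left out (without LPS 6 or untreated 4), and Stx11 lost it without untreated 2, untreated 3 or untreated 4 (adjusted p of 0.0695 to 0.0728) and in limma-voom (0.0551).

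Summed cell type markers had an unadjusted exact p under 0.05 in some lists, and none passed after adjustment over the 11 lists. Summed pancreatic polypeptide cell markers were 954 to 2153 CPM in LPS and 1582 to 2988 CPM in untreated libraries (exact permutation p = 0.0159; 0.175 adjusted over 11 lists). Of the 2 markers, Ppy was called lower (log2 fold change -0.99, edgeR adjusted p = 0.0473), with overlapping groups. Pyy was not called (log2 fold change -0.38, edgeR adjusted p = 0.239). Summed endothelial markers were 1.33 to 4.92 CPM in LPS and 1.28 to 26.6 CPM in untreated libraries (exact p = 0.0476; 0.175 adjusted), and 5 of the 8 were tested, of which Kdr was called lower. Summed alpha cell markers were 4138 to 8931 CPM in LPS and 4984 to 14271 CPM in untreated libraries (exact p = 0.206), and none of the 5 was called. Of 10 beta cell markers, Slc30a8, Slc2a2 and Ucn3 were called lower and none higher (edgeR), and their sum was 101964 to 134049 CPM in LPS and 118261 to 137066 CPM in untreated libraries (exact p = 0.127). Ductal markers went the other way, at 559 to 706 CPM in LPS and 485 to 619 CPM in untreated libraries (exact p = 0.0317; 0.175 adjusted), with Spp1 called higher. Macrophage markers summed to 36.5 to 47.0 CPM in LPS and 29.2 to 42.1 CPM in untreated libraries (exact p = 0.127). Ptprc was at 0 in all libraries. Only Cd68 and C1qa of the 11 markers were tested, and these 2 made up nearly all of the sum. C1qb, C1qc, Adgre1, Itgam and Tyrobp had at most 5 reads per group, and Lyz2, Fcer1g and Csf1r at most 48. The sum thus rests on 2 genes and does not measure macrophages as such. Cd68 was called higher, at a mean of 26.8 CPM in LPS and 16.8 CPM in untreated libraries. C1qa was lower, at 14.7 CPM in LPS and 18.7 CPM in untreated libraries, and was not called (edgeR adjusted p = 0.213). Delta cell markers (4783 to 8723 CPM in LPS, 5829 to 7887 CPM in untreated libraries) and acinar markers (127 to 563 CPM in LPS, 218 to 414 CPM in untreated libraries) had no member called. The same held for mesenchymal markers (3.47 to 25.8 CPM in LPS, 4.76 to 91.1 CPM in untreated libraries) and Schwann cell markers (11.2 to 19.3 CPM in LPS, 14.1 to 17.3 CPM in untreated libraries). The exact p of these 4 lists was at least 0.413. The part of these cells in the lower levels of Cplx2, Cadps, Sytl4 and Rab3b was not tested, and in bulk samples fewer cells of a type and less RNA per cell cannot be told apart.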

How the data were processed

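The authors deposited raw read counts, 1 whole number per Ensembl gene and library, without normalization. Per the submitters' processing notes the reference was GRCm39 and the tools included FastQC, Trimmomatic, STAR, SAMtools, HTSeq and DESeq2. No tool version or annotation release was found. The strand setting is not given in the sources used here, so reads of overlapping genes may be left uncounted as ambiguous or be mixed. Lines without a gene name (15.4 to 20.2% of reads) were dropped.

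The main test was the edgeR (4.0.16, R 4.3.3) quasi-likelihood F test of LPS against untreated, without covariates. It used TMM scaling and 15942 genes that passed filterByExpr (count of 10, total of 15), with Benjamini-Hochberg adjustment. CPM were computed from TMM-scaled library sizes. Standard errors and 95% intervals come from that test. Alternatives were DESeq2 1.42.0, limma 3.58.1 (voom, with and without quality weights), 3 other scalings, 2 other filters and each library left out. The main fit, DESeq2, limma-voom with and without weights and the 3 other scalings were tested on simulated data. The 2 other filters and the fits with a library left out were not. The condition for recovery was set for changes larger than those of the 4 lower genes. Exon lengths came from GENCODE M21 and promoters from RefSeq, both on GRCm38, and no coordinates were converted. Groups came from the sample titles. No 2 libraries of a group agreed within sampling noise (chi-square per gene at least 6.14).

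Members and lists were chosen with earlier results of these data known. Values per library are given for members called, members at an unadjusted p under 0.05 and the most abundant member of each role, and of other lists for called genes. Genes named beyond that rule were chosen after their values were seen. Vamp7 matched no identifier and was not analysed here.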

Additional observations from a re-analysis of the deposited data

Results flagged for a closer look

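In 6 of 80 groups of 5 libraries, over the 40 genes tested, 1 library stood apart from the other 4 by a gap that took up most of the group's range, which chance alone gives in about 1 in 20 groups. For Cplx2, LPS 6 was the lowest LPS library at 377 CPM, where the other 4 had 431 to 445 CPM. Without it the log2 fold change of Cplx2 was -0.42 (edgeR adjusted p = 0.00148). For Rab3b, untreated 1 was the lowest untreated library at 34.8 CPM, where the others had 39.6 to 41.4 CPM. Without it Rab3b had a log2 fold change of -0.38 (edgeR adjusted p = 0.0262). Syt11 was lowest in LPS 6 at 57.7 CPM, beside 69.6 to 70.4 CPM in the other LPS libraries. Rab3d was lowest in LPS 10 at 160.1 CPM, beside 177 to 183 CPM. Sytl1 was highest in untreated 5 at 104 CPM, beside 71.5 to 80.1 CPM in the other untreated libraries, and Doc2b was highest in untreated 3 at 8.49 CPM, beside 6.76 to 7.09 CPM.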

How the results depend on the processing

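The 4 genes called lower were called in 7 of the 8 other settings, and with scaling by library totals alone Rab3b was not. In limma-voom with sample quality weights 1 exocytosis gene was called higher, 994 genes were called in all and 6 genes of the other lists, and DESeq2 called 941 genes, where edgeR called 601 and 3. With single libraries left out, 0 to 3 genes of the other lists and 401 to 624 genes in all were called, and the median of the members ran from -0.057 to -0.0054. The log2 fold change of Rab27a ran from -0.056 to 0.0088 and that of Stxbp2 from -0.012 to 0.14, so that their signs are not fixed. The causes were not tested. Baiap3 was not called by library totals (adjusted p = 0.0524) and Stx18 not without a filter on low counts (0.0959). No paired analysis was made because the labels link no libraries of the 2 groups. No fit took the order of the library numbers into account either. Depth limits Rims1 and Cplx1, which had at most 40 reads per group, and intervals cover counting error and spread of these libraries only.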

Other observations

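The second principal component of all genes had LPS 6 and untreated 1 at one end and LPS 10 and untreated 5 at the other, and some exocytosis genes had the same libraries at their extremes. Rab3a, Stx4a, Stxbp2, Sytl1 and Vamp2, 5 of the 40 tested, were highest in LPS 10 and untreated 5 and lowest in LPS 6 and untreated 1, as were 4% of all genes tested. Exph5 and Rab27a were the reverse, as were 4.33% of all genes tested. Exph5 was lowest in LPS 10 at 37.2 CPM and in untreated 5 at 56.6 CPM, and highest in LPS 6 at 73.2 CPM and in untreated 1 at 75.7 CPM. Stxbp2 was highest in LPS 10 at 159 CPM and in untreated 5 at 154 CPM, and lowest in LPS 6 at 111 CPM and in untreated 1 at 113 CPM. The labels give no batch and do not link libraries of the 2 groups, so these values are given without an explanation.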
